A study of Capra hircus with 10 samples.

Results

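Steroid hormone receptors were represented by 7 protein-coding genes of the goat ovary, taken from the deposited transcript table by their gene symbols: the estrogen receptor genes ESR1 and ESR2, the progesterone receptor gene PGR, the glucocorticoid receptor gene NR3C1, the mineralocorticoid receptor gene NR3C2, and the progesterone receptor membrane component genes PGRMC1 and PGRMC2. These 7 genes, out of 20587 protein-coding gene symbols, were listed with 23 of the 50146 transcripts of the table. Whole ovaries of Anhui white goats were sequenced, 5 of them luteal and 5 follicular by phase, with 1 library of ribosomal RNA-depleted total RNA per ovary. The ovaries were collected at a slaughterhouse, and the labels give no age, treatment, batch or date for them. The labels also do not state which ovaries came from the same animal, so the number of animals is unknown. The p-values treat each ovary as independent and measure the spread between these ovaries. They would be too small if ovaries shared an animal. Expression was measured as FPKM, a fragment count scaled to transcript length and library size.

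The nuclear receptors among these genes are transcription factors that wait for their ligand in complexes with heat shock protein chaperones. After a steroid has bound, they pair on DNA and recruit coactivators or corepressors to their target genes. In the ovary, ESR2 is best known from granulosa cells and ESR1 from theca, stroma and surface epithelium, while PGR is known for its role in ovulation. The mineralocorticoid receptor binds progesterone as well as aldosterone and cortisol. PGRMC1 and PGRMC2 are small membrane proteins of the cytochrome b5-like heme-binding family and are not related in structure to the nuclear receptors.

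All 7 genes entered the test, for which a gene had to reach 0.1 FPKM in 5 or more ovaries. With limma on log2(FPKM + 0.1), 4 of the 7, ESR1, ESR2, PGR and NR3C2, were lower in the luteal phase than in the follicular phase at a Benjamini-Hochberg adjusted p under 0.05, and no gene of the 7 was called higher in the luteal phase. NR3C1, PGRMC1 and PGRMC2 were not called. Calls were frequent in this comparison, since 43.7% of the 15359 genes tested were called. Of all genes tested, 27.8% were called higher in the follicular phase and 15.9% higher in the luteal phase. The luteal phase was the higher one in 36.3% of these calls. That share became 48.8% when the ovaries were shifted to the same median, 41.8% with quantile normalization and 52.5% in TPM, where every ovary sums to the same total. The median log2 fold change of all genes tested was -0.14. The differences of the 4 called receptor genes, between -1.20 and -0.93, were larger in size than those of 88.1% to 93.2% of the genes tested. Because whole ovaries were sequenced, fewer cells of a type and less RNA per cell cannot be told apart.

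ESR1, which encodes estrogen receptor alpha, had a summed FPKM of 3.25, 2.18, 3.44, 2.67 and 5.55 in luteal phase replicates 1 to 5. In follicular phase replicates 1 to 5 its summed FPKM was 9.22, 5.45, 6.20, 8.20 and 9.82. The phases overlapped by 1 ovary on each side, as luteal phase replicate 5 lay just above follicular phase replicate 2. The luteal mean was 3.42 ± 1.29 and the follicular mean 7.78 ± 1.89 (SD, n = 5 each), so the follicular mean was 2.28 times the luteal one. The log2 fold change of ESR1, luteal minus follicular, was -1.20 (standard error, SE, 0.24, limma adjusted p = 0.00230).

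ESR2, which encodes estrogen receptor beta, was at an FPKM of 2.71, 1.89, 2.69, 2.61 and 2.88 in luteal phase replicates 1 to 5 and at 5.92, 5.71, 4.07, 4.55 and 4.61 in follicular phase replicates 1 to 5. Every luteal phase ovary lay below every follicular phase ovary. The means were 2.56 ± 0.384 and 4.97 ± 0.800 (SD, n = 5 each), with a follicular mean 1.95 times the luteal one. The log2 fold change of ESR2 was -0.93 (SE 0.15, limma adjusted p = 0.000532).

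PGR, the nuclear progesterone receptor gene, had an FPKM of 8.91, 7.01, 6.07, 5.63 and 6.93 in luteal phase replicates 1 to 5, and of 16.9, 9.29, 18.7, 16.5 and 14.4 in follicular phase replicates 1 to 5. The phases did not overlap, although follicular phase replicate 2 was nearer to the luteal phase ovaries than to the other follicular phase ovaries. The means were 6.91 ± 1.26 and 15.2 ± 3.61 (SD, n = 5 each), and the follicular mean was 2.19 times the luteal one. For PGR the log2 fold change was -1.10 (SE 0.18, limma adjusted p = 0.000793). The table lists 1 transcript for PGR, so the receptor forms A and B, which arise from different starts of the same gene, were not told apart.

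ESR2 and PGR were the 2 genes of the 7 whose phases did not overlap. Among all genes tested the phases did not overlap in 28.4%, made up of 17.2% with the follicular phase higher and 11.2% with the luteal phase higher.

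NR3C2, the mineralocorticoid receptor gene, was the lowest of the 7 in both phases. Its summed FPKM was 1.16, 1.18, 1.60, 0.754 and 0.806 in luteal phase replicates 1 to 5 and 2.89, 1.19, 2.82, 1.97 and 4.01 in follicular phase replicates 1 to 5. Follicular phase replicate 2 fell among the luteal phase ovaries, and the other 4 follicular phase ovaries were above all luteal phase ovaries. The means of NR3C2 were 1.10 ± 0.343 and 2.58 ± 1.06 (SD, n = 5 each), and the log2 fold change was -1.10 (SE 0.30, adjusted p = 0.0127 by limma). Its spread was wide, with a coefficient of variation of 31.1% among luteal and 41.3% among follicular ovaries.

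NR3C1, the glucocorticoid receptor gene, was the highest of the 5 nuclear receptor genes. Its summed FPKM was 17.2, 17.3, 23.0, 19.5 and 19.6 in luteal phase replicates 1 to 5 and 22.4, 16.9, 22.9, 18.9 and 25.3 in follicular phase replicates 1 to 5. The ranges of the phases overlapped widely. The means were 19.3 ± 2.34 and 21.3 ± 3.37 (SD, n = 5 each). The log2 fold change of NR3C1 was -0.13 with a 95% interval from -0.39 to 0.13 (limma adjusted p = 0.389), and that interval does not contain the fold changes of the 4 called genes.

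PGRMC1, which encodes a membrane protein linked to progesterone binding, was by far the most abundant of the 7. Its FPKM was 181, 164, 170, 188 and 192 in luteal phase replicates 1 to 5 and 192, 190, 174, 193 and 166 in follicular phase replicates 1 to 5. The means were 179 ± 11.7 and 183 ± 12.3 (SD, n = 5 each), and the ranges lay over each other. The log2 fold change of PGRMC1 was -0.03, with a 95% interval from -0.19 to 0.13 (limma adjusted p = 0.741).

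PGRMC2, the relative of PGRMC1, was at an FPKM of 15.4, 13.1, 15.9, 15.3 and 16.6 in luteal phase replicates 1 to 5. In follicular phase replicates 1 to 5 it was at 16.3, 13.1, 14.5, 14.1 and 16.3. The means were 15.2 ± 1.31 and 14.9 ± 1.43 (SD, n = 5 each). The log2 fold change of PGRMC2 was 0.04, with a 95% interval from -0.16 to 0.23 (limma adjusted p = 0.748). The sign of the PGRMC1 difference turned to positive with ovaries shifted to the same median (0.05) and in TPM (0.07), and that of PGRMC2 turned to negative without follicular phase replicate 2 (-0.0066), each without a call.

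**Figure D1:**
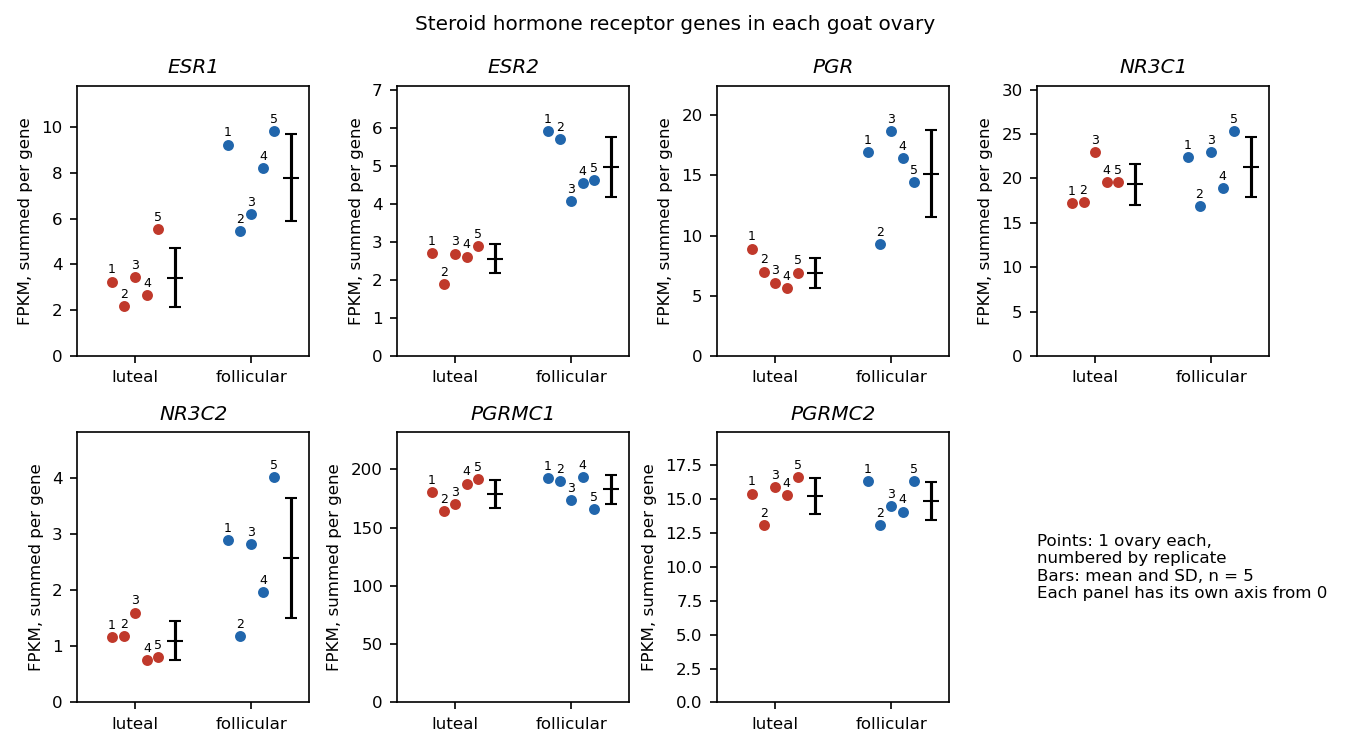
Summed FPKM of the 7 receptor genes (vertical axes from 0, a separate axis per gene) in the 5 luteal phase and 5 follicular phase ovaries. Each point is 1 ovary with its replicate number, and bars give the mean and SD. ESR2 and PGR do not overlap between the phases, ESR1 and NR3C2 overlap through follicular phase replicate 2, and NR3C1, PGRMC1 and PGRMC2 overlap widely.

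The 7 genes differed in how closely the ovaries of a phase agreed. The coefficient of variation was 6.52% among luteal and 6.75% among follicular ovaries for PGRMC1, and 8.61% and 9.60% for PGRMC2. For ESR1 it was 37.7% and 24.4%, and for PGR 18.2% and 23.8%. On the log2 scale the follicular phase SD of NR3C2 (0.64) was larger than that of 93.4% of the genes tested, and that of PGRMC1 (0.10) was larger than that of 11.6%.

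The same ovaries were often lowest. Follicular phase replicate 2 was the lowest follicular phase ovary for 5 of the 7 genes (ESR1, PGR, NR3C1, NR3C2 and PGRMC2), and luteal phase replicate 2 was the lowest luteal phase ovary for 4 (ESR1, ESR2, PGRMC1 and PGRMC2). These 2 ovaries had the highest FPKM summed over all transcripts in their phases, 540124 in follicular phase replicate 2 and 503276 in luteal phase replicate 2, where the sums of all ovaries ran from 452508 to 540124. In TPM, which removes the difference in these sums, each of the 2 ovaries was lowest for 5 genes. Without follicular phase replicate 2 the log2 fold change was -1.32 for ESR1, -0.88 for ESR2, -1.27 for PGR and -1.34 for NR3C2 (limma adjusted p = 0.00175, 0.00126, 6.86e-05 and 0.00189). Without luteal phase replicate 2 it was -1.06, -0.83, -1.11 and -1.13 for the same genes (limma adjusted p = 0.00529, 0.000960, 0.00214 and 0.0212).

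**Figure D2:**
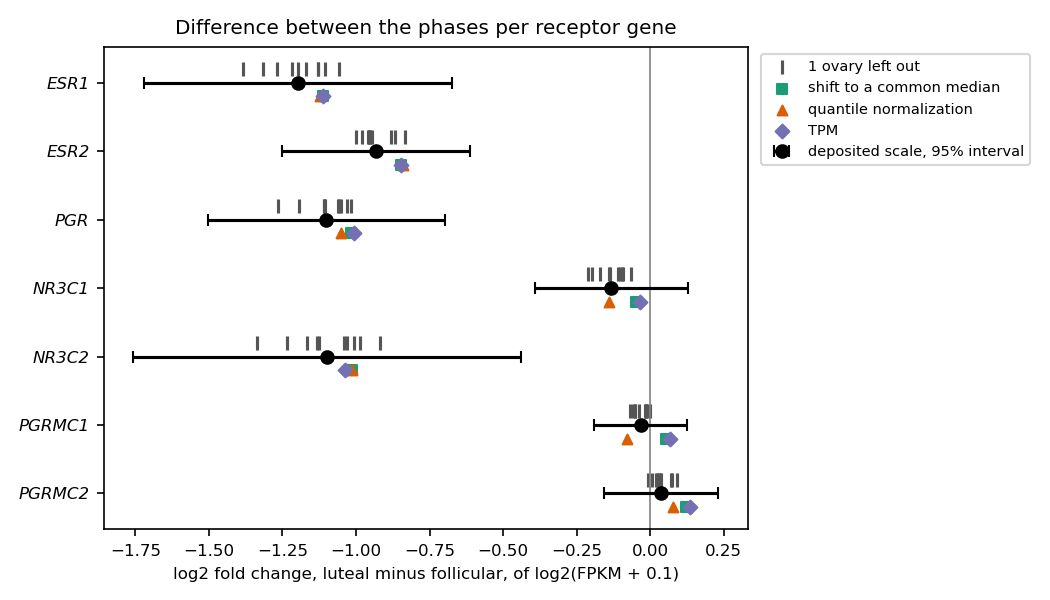
Log2 fold change of each receptor gene, luteal minus follicular (horizontal axis), with its 95% interval on the deposited scale, beside the values after 3 other scalings and with each ovary left out in turn. ESR1, ESR2, PGR and NR3C2 stay to the left of 0 under every setting drawn, and the intervals of NR3C1, PGRMC1 and PGRMC2 include 0.

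FPKM is scaled by transcript length, so levels can be set side by side between genes. In the luteal phase the order of the mean FPKM was PGRMC1 (179), NR3C1 (19.3), PGRMC2 (15.2), PGR (6.91), ESR1 (3.42), ESR2 (2.56) and NR3C2 (1.10). Each gene lay above the next in 5 of 5 luteal phase ovaries. ESR1 and ESR2 were the only neighbours in that order whose ranges overlapped. In the follicular phase PGR moved up beside PGRMC2, at a mean FPKM of 15.2 against 14.9. PGR was above PGRMC2 in 3 of 5 follicular phase ovaries, so the order of this pair was not resolved. NR3C1 overlapped PGR in range but was above it in 5 of 5 ovaries, and ESR1 was above ESR2 in 4 of 5. PGRMC1 was 9.26 times the next gene in luteal and 8.59 times in follicular ovaries. Its mean FPKM exceeded that of 98.0% of the genes tested in luteal and 98.1% in follicular ovaries, while PGR exceeded 51.8% and 70.5%, ESR1 35.9% and 53.0%, ESR2 30.7% and 42.2%, and NR3C2 20.1% and 30.0%.

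A ratio of 2 genes within an ovary does not change when all values of that ovary are multiplied by the same factor. The log2 ratio of NR3C1 to NR3C2 was 3.89, 3.88, 3.84, 4.70 and 4.61 in luteal phase replicates 1 to 5 and 2.95, 3.83, 3.02, 3.27 and 2.66 in follicular phase replicates 1 to 5. Every luteal phase ovary was above every follicular phase ovary, though luteal phase replicate 3 and follicular phase replicate 2 were close. The difference was 1.04 on the log2 scale (two-sided exact permutation p = 0.00794, the smallest that divisions of 5 against 5 ovaries allow, and 0.0317 after Benjamini-Hochberg adjustment over the 4 ratios tested). The FPKM of NR3C1 was thus a larger multiple of that of NR3C2 in luteal than in follicular ovaries. Of the 2 genes, NR3C2 was called lower in the luteal phase (log2 fold change -1.10) and NR3C1 was not called (-0.13). When any of the luteal phase ovaries was left out, the adjusted exact permutation p became 0.0635, at differences between 0.91 and 1.12.

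The other 3 ratios did not differ beyond the spread between ovaries. The log2 ratio of ESR1 to ESR2 ran from 0.03 to 0.95 in luteal ovaries and from -0.07 to 1.09 in follicular ones, a difference of -0.26 (exact permutation p = 0.310, adjusted 0.619). The log2 ratio of PGR to ESR1 ran from 0.32 to 1.68 and from 0.55 to 1.59, a difference of 0.11 (exact permutation p = 0.714, adjusted 0.714). For PGRMC1 to PGRMC2 it ran from 3.42 to 3.65 and from 3.35 to 3.86, a difference of -0.07 (exact permutation p = 0.516, adjusted 0.688). The 2 estrogen receptor genes and PGR were thus each lower in the luteal phase by amounts that these ratios did not separate, which does not show that they were equal.

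**Figure D3:**
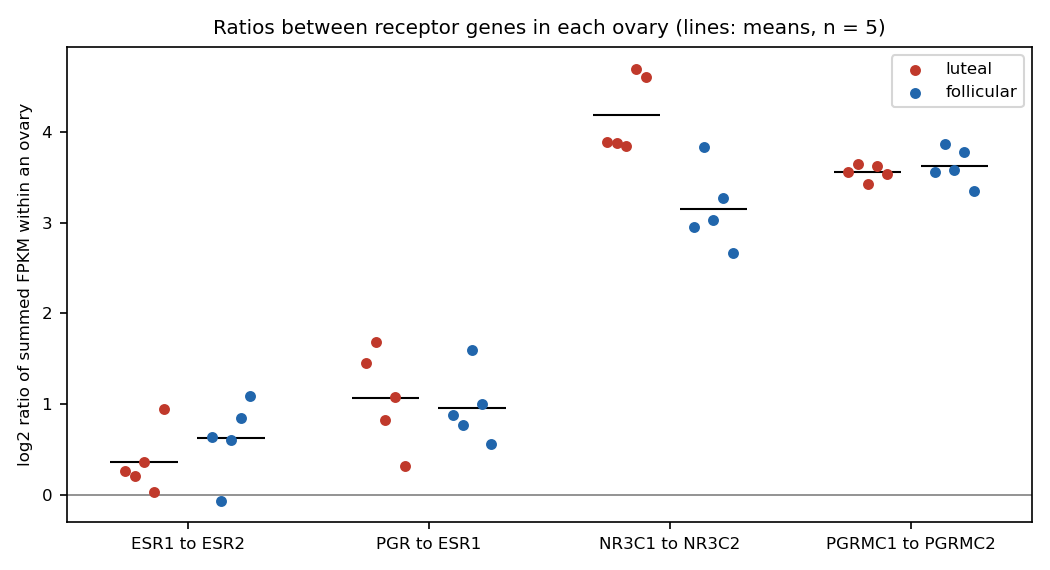
Log2 ratio of the summed FPKM of 2 receptor genes within each ovary (vertical axis), for 4 pairs of genes, with luteal phase ovaries in red and follicular phase ovaries in blue and lines at the means. The luteal phase ovaries lie above all follicular phase ovaries for NR3C1 to NR3C2, and the phases overlap for the other 3 ratios.

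ESR2, PGR, PGRMC1 and PGRMC2 were each listed with 1 transcript. ESR1 was listed with 6 transcripts, NR3C1 with 10 and NR3C2 with 3. Of the 23 transcripts of the 7 genes, 18 passed the filter and 5 were called in the fit over all transcripts, all of them lower in the luteal phase. In that fit 17.3% of 32842 transcripts were called, and 9.82% as higher in the follicular phase. The 5 called were the transcripts of ESR2 and PGR and 3 minor transcripts of NR3C1 and NR3C2, and this count ran down to 2 under other settings. Without luteal phase replicate 2, 1 transcript was called higher in the luteal phase, NR3C1 XM_013965655.2 at a log2 fold change of 1.70 (limma adjusted p = 0.0251). With all ovaries it was at 1.31 and not called (0.104).

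In most ovaries 1 transcript held most of the FPKM of a gene. For NR3C1 it was XM_018050203.1, which held 77.9% to 90.2% in luteal ovaries and 70.4% to 89.4% in follicular ones. It was at 16.4 ± 1.93 and 18.3 ± 4.19 FPKM (SD, n = 5 each), with a log2 fold change of -0.13 (limma adjusted p = 0.656). The other 9 NR3C1 transcripts had mean FPKM between 0.108 and 0.765. Of these, XM_005683086.3 was at 0.276, 0.00780, 0.332, 0.00701 and 0.0130 in luteal phase replicates 1 to 5 and at 0.522, 1.43, 0.268, 0.577 and 0.643 in follicular phase replicates 1 to 5 (log2 fold change -1.94, limma adjusted p = 0.0315). XM_018050205.1 was at 0.204 ± 0.0457 and 0.428 ± 0.0862 without overlap (SD, n = 5 each; log2 fold change -0.79, limma adjusted p = 0.0361). The first call was lost in 9 of 18 alternatives and the second in 12. Both were lost in most cases when 1 ovary was left out, with limma adjusted p of up to 0.0760 and 0.0809, and with a replicate block, at 0.0967 and 0.111. The call of XM_018050205.1 was also lost under the 3 other scalings (0.0534 to 0.0745), and that of XM_005683086.3 with no filter (0.0581).

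For ESR1 the leading transcript XM_018053363.1 was between 0.914 and 4.62 FPKM in the luteal phase ovaries and at 7.37, 4.60, 1.98, 6.82 and 7.89 in follicular phase replicates 1 to 5. In 2 ovaries a different ESR1 transcript, XM_018053364.1, was the more abundant. It was at 3.43 FPKM in follicular phase replicate 3, against 0.699 to 1.19 in the other follicular phase ovaries, and at 0.946 in luteal phase replicate 2, where the leading transcript was at 0.914. The leading transcript therefore held 31.9% of ESR1 in follicular phase replicate 3 and 79.9% to 84.4% in the other 4, and it held 41.8% to 83.3% in the luteal phase. Taken alone, the leading transcript had a log2 fold change of -1.25 and was not called (limma adjusted p = 0.0902). It was called without follicular phase replicate 3, at -1.58 (limma adjusted p = 0.0284), and without luteal phase replicate 5, at -1.52 (0.0495). The call of ESR1 was made on the sum of its transcripts. In simulated data the fit over all transcripts recovered 26% of 2-fold changes, and the gene fit 78%. A missing transcript call thus does not show the absence of a change.

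For NR3C2 the leading transcript XM_005691196.3 held 85.6% to 90.7% in follicular ovaries and 90.0% to 96.9% in 4 of the luteal phase ovaries. In luteal phase replicate 4 it held 23.8%, as it was at 0.179 FPKM while XM_013970502.2 was at 0.530. Its log2 fold change was -1.31, which was not called (limma adjusted p = 0.0905). The minor NR3C2 transcript XM_018061588.1 was at 0.0451 ± 0.0493 and 0.202 ± 0.0720 FPKM (SD, n = 5 each; log2 fold change -1.09, limma adjusted p = 0.0273), and its call was lost in 9 of 18 alternatives. These were a replicate block (adjusted p = 0.0751), quantile normalization (0.0739), a pseudocount of 0.01 (0.0618) and leaving out luteal phase replicate 1, 4 or 5 or follicular phase replicate 3, 4 or 5 (0.0553 to 0.0663).

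A difference between the phases in the share of the leading transcript was not detected for any of the 3 genes. The difference, luteal minus follicular, was -4.80 percentage points for ESR1, -8.28 for NR3C2 and 0.156 for NR3C1, and the exact permutation p (two-sided) was 0.770, 0.984 and 0.984, or 0.984 for each after adjustment. Without luteal phase replicate 4 the NR3C2 difference was 5.93 points in the other direction (adjusted exact permutation p = 0.0714). FPKM of transcripts that overlap within a gene are estimates of how shared reads divide, and the depth of each ovary is unknown, so shares of the low genes are uncertain.

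**Figure D4:**
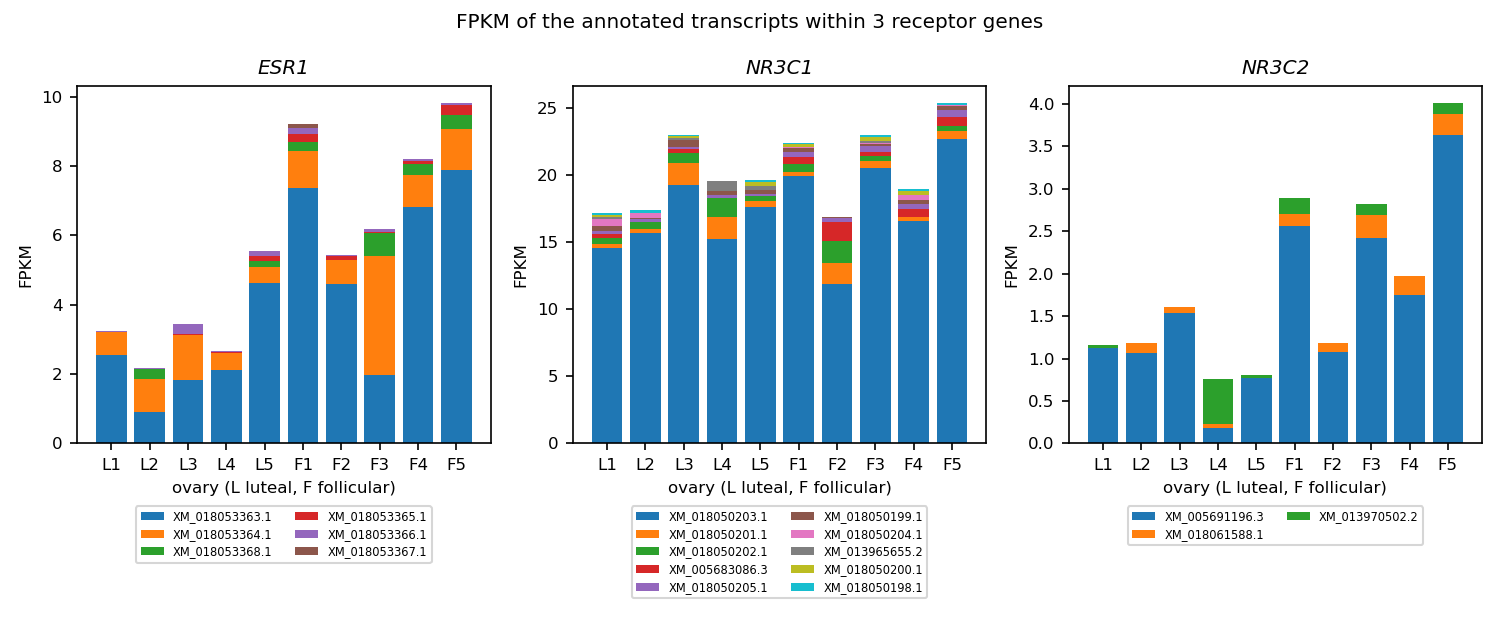
FPKM of each annotated transcript of ESR1, NR3C1 and NR3C2, stacked per ovary (vertical axes from 0, L for luteal phase and F for follicular phase with the replicate number). XM_018053364.1 takes the larger part of ESR1 in follicular phase replicate 3 and slightly exceeds XM_018053363.1 in luteal phase replicate 2, and XM_013970502.2 that of NR3C2 in luteal phase replicate 4.

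Membrane receptors for the same hormones, and relatives and partners of the receptors, went in both directions. Of all genes tested, 15.9% were called higher and 27.8% lower in the luteal phase. Of 8 listed membrane progesterone receptors and PGRMC relatives, 7 were in the table and tested, 2 were higher and 3 lower in the luteal phase, and their median log2 fold change was -0.23 against -0.14 for all genes. PAQR7, the membrane progesterone receptor alpha gene, was at 1.58 ± 0.233 FPKM in luteal ovaries and 0.490 ± 0.0994 in follicular ones (SD, n = 5 each, as in the pairs of means that follow; log2 fold change 1.51, limma adjusted p = 6.72e-05). PAQR5, the gamma form, was at 2.39 ± 1.44 and 0.811 ± 0.409 (log2 fold change 1.36, limma adjusted p = 0.0162), and PAQR8, the beta form, at 1.64 ± 0.117 and 2.47 ± 0.416 (log2 fold change -0.55, limma adjusted p = 0.00950). In TPM the PAQR8 call was lost (adjusted p = 0.0528), and 3 genes of the list were called, 2 of them higher and 1 lower in the luteal phase. SERBP1, an RNA-binding protein that associates with PGRMC1, was at 154 ± 11.3 and 208 ± 27.8, the lower mean being luteal (log2 fold change -0.43, limma adjusted p = 0.00400).

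The list of estrogen-related receptors and the membrane estrogen receptor held 4 genes in all. Of these, 3 were tested and all 3 were called, against 43.7% of all genes tested. GPER1, the G protein-coupled estrogen receptor gene, was at 0.959 ± 0.345 FPKM in luteal and 0.206 ± 0.115 in follicular ovaries without overlap (log2 fold change 1.80, limma adjusted p = 0.000765). It was thus higher in the phase in which ESR1 and ESR2 were lower. ESRRA, an orphan receptor, was at 12.8 ± 1.22 and 9.62 ± 0.737 (log2 fold change 0.40, limma adjusted p = 0.00365), and its relative ESRRG at 0.154 ± 0.0436 and 0.606 ± 0.262 (log2 fold change -1.40, limma adjusted p = 0.00220). ESRRB did not pass the filter.

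Chaperones that hold the unbound receptors were called in 8 of 16 genes, each lower in the luteal phase. Among all genes tested 43.7% were called, and 27.8% were called lower in the luteal phase. The median log2 fold change was -0.35 over the list and -0.14 over all genes. The largest differences were in HSP90AB1, the constitutive HSP90 gene (350 ± 34.1 and 581 ± 69.6 FPKM, log2 fold change -0.73, limma adjusted p = 0.000308), the immunophilin FKBP4 (49.9 ± 5.22 and 81.0 ± 14.8, -0.68, 0.00151), the cyclophilin PPID (40.8 ± 4.98 and 61.5 ± 6.79, -0.59, 0.000799) and the HSP90 activator AHSA1 (63.3 ± 7.38 and 93.3 ± 19.4, -0.54, 0.00981). These 4 calls held under the 3 other scalings. With ovaries shifted to the same median 1 gene of the list was called higher and 5 lower in the luteal phase, with quantile normalization 0 and 10, and in TPM 1 and 6, while 12 genes of the list were called without follicular phase replicate 5.

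Of 16 coactivators, 2 were higher and 3 lower in the luteal phase and 11 were not called, with a median of -0.20. The shares over all genes tested were 15.9% higher and 27.8% lower. NCOA4, known both as a receptor coactivator and as a ferritin receptor of autophagy, was the largest of these at 83.1 ± 10.1 and 40.4 ± 5.65 FPKM (log2 fold change 1.04, limma adjusted p = 4.15e-05). The arginine methyltransferase genes CARM1 (-0.63, adjusted p = 0.000225) and PRMT1 (-0.37, 0.0202) and the coactivator NCOA6 (-0.41, 0.0476) were lower in the luteal phase. The NCOA6 call was lost under all 3 other scalings, and that of PRMT1 with ovaries shifted to the same median (0.106). The count of coactivators called was 3 with that shift and 9 without follicular phase replicate 2.

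Corepressors were called in 8 of 10 genes, 7 of them lower in the luteal phase. For all genes tested these shares were 43.7% called and 27.8% lower in the luteal phase. The median log2 fold change was -0.33 over the list and -0.14 over all genes. NRIP1, a corepressor of ligand-bound nuclear receptors, was at 19.5 ± 1.91 and 29.9 ± 2.95 FPKM (log2 fold change -0.61, limma adjusted p = 0.000336). SIN3A (-0.51, adjusted p = 0.00321), SAFB (-0.45, 0.000405) and PHB2 (-0.45, 0.00222) were lower as well. Under the 3 other scalings 1 corepressor was called higher and 5, 6 and 5 lower in the luteal phase.

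Enzymes that make or remove active glucocorticoid near its receptors were called in 1 of 3 genes, where 43.7% of all genes tested were called. HSD11B2, which inactivates cortisol, was at 1.52 ± 0.569 FPKM in luteal and 0.775 ± 0.270 in follicular ovaries, with overlapping ranges (log2 fold change 0.89, limma adjusted p = 0.0375). The call was lost without luteal phase replicate 3, 4 or 5 or follicular phase replicate 3 or 4, with an adjusted p of up to 0.0882 without luteal phase replicate 5, and when no filter was used. HSD11B1, which regenerates cortisol, was at 1.83 ± 0.728 and 1.73 ± 0.383 and was not called (limma adjusted p = 0.918).

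Genes known as targets of the receptors did not go one way, and neither did all genes tested, of which 15.9% were called higher and 27.8% lower in the luteal phase. Of 12 estrogen-induced genes, 2 were higher and 5 lower in the luteal phase, with a median log2 fold change of -0.22. GREB1, an estrogen-induced cofactor of ESR1, was at 16.9 ± 6.55 FPKM in luteal and 45.7 ± 5.07 in follicular ovaries (log2 fold change -1.50, limma adjusted p = 0.000307). The carbonic anhydrase gene CA12 (-1.51, adjusted p = 0.00124) was lower and the stanniocalcin gene STC2 (1.82, 9.99e-06) higher in the luteal phase. NRIP1 also belongs to this list. The number called higher was 1 in place of 2 with quantile normalization, with no filter, with eBayes without trend, with a replicate block and without any single ovary other than replicate 2 of either phase. The number called lower ran from 4 to 6 over the alternatives.

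Of 13 glucocorticoid-induced genes tested, 2 were higher and 3 lower in the luteal phase and 8 were not called, with a median of -0.26. These counts were near the shares over all genes tested, 15.9% higher and 27.8% lower. SGK1, a kinase induced by both glucocorticoids and mineralocorticoids, was at 48.1 ± 13.1 and 13.1 ± 1.96 FPKM (log2 fold change 1.84, limma adjusted p = 2.02e-05), and TSC22D3, also known as GILZ, at 93.0 ± 11.4 and 63.0 ± 9.09 (0.57, 0.00283). ZBTB16, a zinc finger gene induced by glucocorticoids and by progesterone, was at 3.66 ± 1.16 and 7.90 ± 2.36 (-1.09, 0.00403). ERRFI1 was lower with a call that 2 of the 3 other scalings lost (-0.43, limma adjusted p = 0.0478). The number of genes called in the list ran from 3 to 7. It had 2 genes called higher and 1 lower with ovaries shifted to the same median, in TPM, with no filter, and without luteal phase replicate 4 or follicular phase replicate 3. It had 2 higher and 4 lower with quantile normalization, 2 higher and 5 lower without luteal phase replicate 1, and 3 higher and 1 lower without luteal phase replicate 2.

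Of the 10 progesterone receptor targets of the ovulatory follicle that were tested, 3 were higher and 3 lower in the luteal phase, with a median of -0.42. The epidermal growth factor-like ligand EREG was at 24.7, 46.9, 3.06, 4.33 and 4.44 FPKM in luteal phase replicates 1 to 5 and between 0.0721 and 1.04 in the follicular phase (log2 fold change 4.57, limma adjusted p = 0.000797). The cytokine gene IL6 was at 14.2, 34.6, 6.39, 7.16 and 7.51 in luteal phase replicates 1 to 5 and between 0.0817 and 3.75 in the follicular phase (4.35, 0.00119). PPARG, at 11.1 ± 1.60 and 21.8 ± 3.56 (-0.97, 0.000189), and ZBTB16 were lower in the luteal phase. The third gene called higher was HIF1A (0.60, limma adjusted p = 0.0252), which is named here after its values were seen, and its call was lost with no filter and without luteal phase replicate 1 or 2 or follicular phase replicate 3 or 5. The list held members on both sides while PGR itself was lower in the luteal phase. Calls on both sides were also common over all genes tested, at 15.9% higher and 27.8% lower in the luteal phase.

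**Figure D5:**
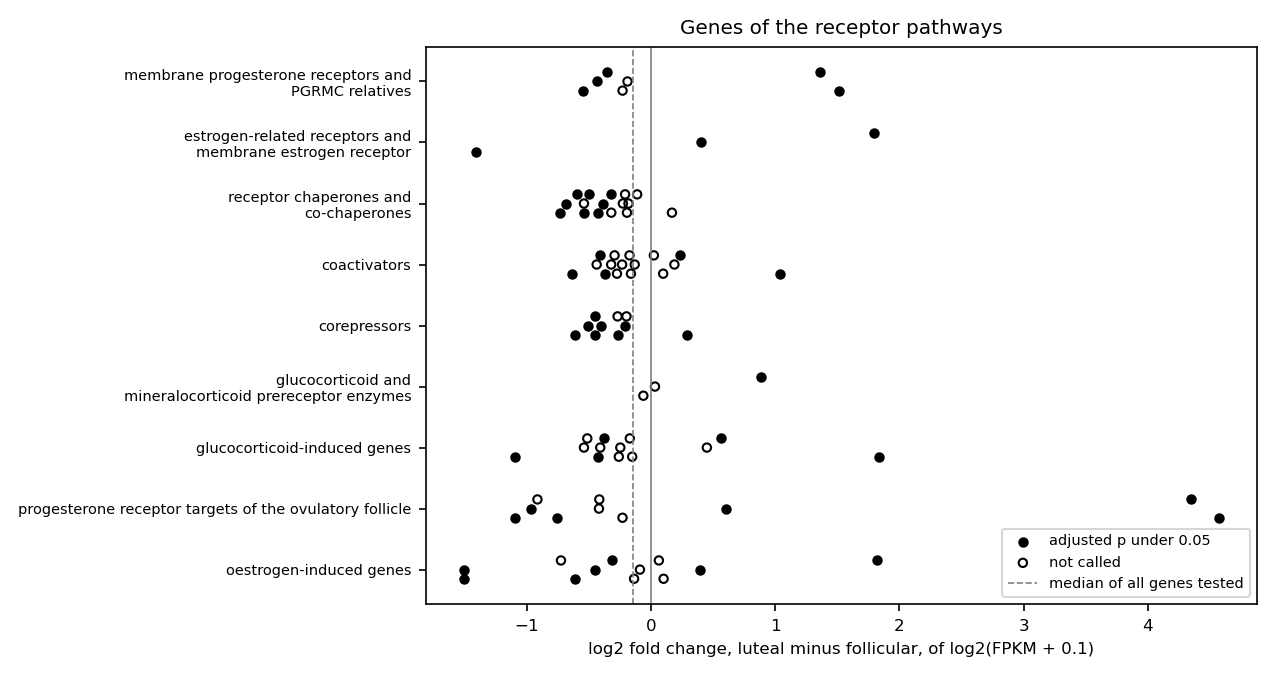
Log2 fold change, luteal minus follicular (horizontal axis), of each tested gene in 9 lists of receptor relatives, cofactors, enzymes and targets, with filled points for an adjusted p under 0.05 and a dashed line at the median of all genes. Chaperones and corepressors lie mostly to the left of 0, as does the median of all genes (-0.14), and the target lists hold genes on both sides of 0.

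Some lists of marker genes of ovarian cell types differed between the phases as well, and others went both ways or were mostly not called. Among all genes tested, 15.9% were called higher and 27.8% lower in the luteal phase. Corpus luteum markers were higher in the luteal phase in 7 of 7 genes tested, with a summed FPKM of 5939 to 8093 against 132 to 184 in the follicular phase. Endothelium markers were higher in 5 of 6 (207 to 258 against 106 to 128). Granulosa cell markers were lower in the luteal phase in 4 of 8 and higher in 1 (132 to 719 against 245 to 1147), theca cell markers lower in 3 of 4 and higher in 1, LHCGR, which is also a corpus luteum marker (109 to 149 against 154 to 229). Smooth muscle markers were lower in 5 of 5 (538 to 967 against 1176 to 1486) and oocyte markers in 4 of 8 (8.61 to 20.1 against 16.5 to 47.4). Ovarian stroma markers were higher in 2 and lower in 3 of 8 (2015 to 3609 against 1852 to 2595). Surface epithelium markers were higher in 1 and lower in 2 of 5 tested (17.9 to 38.3 against 19.0 to 60.1), and leukocyte markers higher in 1 of 6 (78.1 to 92.6 against 44.0 to 90.1). With a replicate block 7 granulosa cell markers were called lower, and without follicular phase replicate 4 so were 7 oocyte markers. Without luteal or follicular phase replicate 5, 2 leukocyte markers were called higher. The number of surface epithelium markers called lower was 1 in place of 2 under each of the 3 other scalings, with no filter, with eBayes without trend and without luteal phase replicate 2, 3 or 4 or follicular phase replicate 1, 2, 4 or 5. With ovaries shifted to the same median or in TPM 2 stroma and 4 smooth muscle markers were called lower. No listed marker that the table holds was at 0 in all 10 ovaries. The part of these cell types in the differences of ESR1, ESR2, PGR and NR3C2 was not tested.

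The genes with the profile nearest to each receptor gene were sought among 11436 tested genes with a mean FPKM of at least 1. Genes with a symbol starting with LOC were left out of these. Nearness was the root mean square difference of log2(FPKM + 0.1) over the 10 ovaries, after the mean of each gene was subtracted. The nearest to PGR were SOX6 (0.14) and TMEM35A (0.17), where the median gene was at 0.61. For ESR2 they were ISYNA1 (0.15) and MARK1 (0.17), and for NR3C2 TNFRSF19 (0.14) and CPEB1 (0.16). For ESR1 they were LLGL2 (0.25) and LARGE2 (0.26), with the median gene at 0.69. The profiles that differed little between the phases were nearest to ELAC1 and HOXD9 for NR3C1 (0.06 each), PAPOLA and HNRNPL for PGRMC1 (0.05 and 0.06) and AHCYL1 and ITSN2 for PGRMC2 (0.05 and 0.06). Distances are smaller for genes that vary less, so they are not comparable between receptors. A profile flat over the 10 ovaries would lie at 0.09 from PGRMC1, 0.12 from PGRMC2 and 0.19 from NR3C1. It would lie at 0.51 from ESR2, 0.62 from PGR, 0.71 from ESR1 and 0.73 from NR3C2, about where the median gene lay.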

How the data were processed

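Ribosomal RNA-depleted, strand-specific libraries of 10 ovaries were sequenced. The authors mapped reads by HISAT2, ran StringTie for assembly and deposited, for each ovary on its own, the FPKM that Cuffdiff estimated per transcript. The study tested with Cuffdiff on reads, and limma was used here because only FPKM was at hand. The genome build is not given in the sources used here. Depth per ovary is unknown, so no counting error could be given and the spread between ovaries is the measure of precision. Values of protein-coding transcripts were summed per symbol. Genes, or single transcripts, that reached 0.1 FPKM in 5 or more ovaries were compared on log2(FPKM + 0.1), which understates the change of low genes, by limma 3.58.1 (lmFit, eBayes with trend, two-sided) in R 4.3.3, with Benjamini-Hochberg adjustment over all features tested. Ratios and shares were compared by exact permutation in Python 3.11.15 with numpy 2.4.6, pandas 2.3.3 and matplotlib 3.10.9. Scripts were tested on simulated data with 200 changed features. The gene fit recovered 78% of 2-fold and 94% of 4-fold changes, and the transcript fit 26% and 48%. The receptor genes and the 18 gene lists were chosen with earlier results of these data known. Named list genes are the up to 4 called genes with the largest change, or, with no call, the 2 most abundant. In the list of cortisol enzymes, HSD11B1 was added after its values were seen. Absent symbols were matched through RefSeq synonyms, which placed CYP11A1 and CYP17A1. Listed symbols without a match were not analysed here. Alternatives were other pseudocounts, filters and scalings, eBayes without trend, a replicate block, transcripts for genes and leaving out each ovary.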

Additional observations from a re-analysis of the deposited data

Results flagged for a closer look

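In each phase, the highest and the lowest of the 5 ovaries were compared with the others by Dixon's criterion for the 7 genes, the 4 ratios, the 3 shares and, where a gene has several transcripts, those with a mean of at least 0.1 FPKM, in 60 groups in all. A value far from the others was found in 9 groups, where chance alone gives about 5% of groups. These groups are not independent, since transcripts, shares and sums share reads. The 3 ESR1 transcripts with a lower mean were not among them, and by the same criterion XM_018053365.1 was high in luteal phase replicate 5 (0.154 FPKM, next 0.0264) and XM_018053367.1 in follicular phase replicate 1 (0.129, next 0.00670).

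For ESR2, luteal phase replicate 2 was low at 1.89 FPKM, with the next ovary at 2.61, and without it the log2 fold change was -0.83 (limma adjusted p = 0.000960). For ESR1, follicular phase replicate 3 was high in XM_018053364.1, at 3.43 FPKM with the next ovary at 1.19, and low in the share of the leading transcript, at 31.9% with the next at 79.9%.

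For NR3C1, follicular phase replicate 2 was low in the share of the leading transcript, at 70.4% with the next ovary at 87.4%, and in XM_018050198.1, at 0.00117 FPKM with the next at 0.107. Follicular phase replicate 4 was high in XM_018050204.1, at 0.357 FPKM with the next at 0.110. Follicular phase replicate 3 was high in XM_013965655.2, at 0.104 FPKM with the next at 0.00648.

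For NR3C2, luteal phase replicate 4 was high in XM_013970502.2, at 0.530 FPKM with the next ovary at 0.0360, and low in the share of the leading transcript, at 23.8% with the next at 90.0%.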

How the results depend on the processing

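Under each of the 19 alternatives to the gene fit, ESR1, ESR2, PGR and NR3C2 were called lower in the luteal phase and NR3C1, PGRMC1 and PGRMC2 were not called, so 4 of the 7 genes were called each time. The leading transcript alone, in the fit over all transcripts, was not called for ESR1 (-1.25, limma adjusted p = 0.0902) or NR3C2 (-1.31, 0.0905). The count of their transcripts called, 5 on the deposited scale, was 2 with a minimum FPKM of 0.5, where 10 of them were tested, 3 after quantile normalization, 2 with a replicate block and 2 to 4 when 1 ovary was left out. It was 2 without luteal phase replicate 4, follicular phase replicate 4 or follicular phase replicate 5, and 3 without luteal phase replicate 5 or follicular phase replicate 1. The cause was not tested. The difference in the log2 ratio of NR3C1 to NR3C2 ran from 0.91 to 1.21 when 1 ovary was left out. It stayed at 1.04 with a replicate block, with an adjusted exact permutation p of 0.250 in a design of 5 pairs that cannot reach 0.05. The labels do not say whether ovaries with equal replicate numbers share anything besides the number. Deviations of same-numbered ovaries correlated at 0.0258 to 0.199 across genes, and 2 of 5 luteal phase ovaries correlated best with their own number. The block gave 7020 called genes against 6711 and changed no call among the 7 genes. Depth is unknown, so counting error could not be given for any transcript.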
